A study of Mus musculus with 2 samples.

Results

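The Zic genes encode C2H2 zinc finger transcription factors of the embryonic nervous system, and 4 of them, Zic1, Zic2, Zic4 and Zic5, were measured in mouse small intestine crypts with and without Eed. They were taken by their symbols from a table of 17216 genes, and each was represented by 1 RefSeq transcript. No measured value entered that rule, but earlier results of these data were known when the genes were chosen. The data are bulk RNA-seq of 2 libraries, 1 per genotype, from C57BL/6 mice. The control library, labelled wild type, came from AhCre mice, and the knockout library came from AhCre mice that also carried Eed fl/fl alleles. AhCre is a Cre recombinase under a promoter that answers to the aryl hydrocarbon receptor. Animals of both genotypes were given 3 injections of its ligand β-naphthoflavone, and crypts were isolated 15 days later, so Cre and ligand are common to both groups. The labels do not say how many animals each library holds, which part of Eed was floxed, or in what share of cells it was deleted.

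Zic proteins bind DNA through zinc fingers related to those of the Gli and Glis factors and act in neural tube closure, the dorsal neural tube, the neural crest, the forebrain midline and the cerebellum. The genes lie in head-to-head pairs, Zic1 with Zic4 on mouse chromosome 9 and Zic2 with Zic5 on chromosome 14. Eed belongs to the core of Polycomb repressive complex 2 (PRC2), which methylates histone H3 at lysine 27 and holds many developmental regulators silent, typically those with CpG-rich promoters, in tissues that do not use them.

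The sequences upstream of 3 members are shown because the pairs share their neighbourhood and CpG content is the feature usually linked to Polycomb targets. The sequence upstream of Zic2 was missing from the reference used, so its CpG content is not given. Each is the 250 bases before the RefSeq start, read 5′ to 3′ on the gene's strand in build GRCm38.p6, with every CpG in capitals. Zic1 is at chr9:91365769-91366018 on the minus strand, Zic4 at chr9:91368722-91368971 on the plus strand, and Zic5 at chr14:122465659-122465908 on the minus strand.
Zic1: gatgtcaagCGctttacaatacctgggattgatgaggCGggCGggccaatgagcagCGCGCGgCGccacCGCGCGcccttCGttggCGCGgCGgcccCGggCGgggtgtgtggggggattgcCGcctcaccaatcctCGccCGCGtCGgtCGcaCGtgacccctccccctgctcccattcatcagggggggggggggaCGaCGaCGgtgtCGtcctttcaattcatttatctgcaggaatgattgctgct
Zic4: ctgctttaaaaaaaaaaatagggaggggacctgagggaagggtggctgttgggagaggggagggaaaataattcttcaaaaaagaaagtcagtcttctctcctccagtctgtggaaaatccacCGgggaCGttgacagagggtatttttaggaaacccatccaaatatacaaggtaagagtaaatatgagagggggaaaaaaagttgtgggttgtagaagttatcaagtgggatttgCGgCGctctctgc
Zic5: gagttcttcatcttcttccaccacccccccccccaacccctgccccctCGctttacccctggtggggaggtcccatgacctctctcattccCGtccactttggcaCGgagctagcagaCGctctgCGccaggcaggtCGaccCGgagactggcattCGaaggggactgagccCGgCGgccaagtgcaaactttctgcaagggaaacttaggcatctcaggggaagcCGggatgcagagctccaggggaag
The window of Zic1 held 27 CpGs, more than in 91.4% of 32851 such windows of RefSeq genes, whose median was 6. That of Zic5 held 11, more than in 64.4% of windows, and that of Zic4 held 4, more than in 37.8%. The Zic1 window held 2 matches to the GC box GGGCGG and 2 to the CCAAT box (CCAAT), searched on both strands; these motifs occurred in 32.7% and 33.8% of all windows. Neither motif was in the windows of Zic4 and Zic5. The core of the Zic binding site, CAGCAGG, was in none of the 3 windows and in 8.44% of all, and the Gli site GACCACCCA was in none of the 3 and in 0.225% of all.

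The libraries held 6970733 reads (wild type) and 5918162 reads (knockout) on RefSeq transcripts. With 1 library per genotype, the differences below have no replicate check and were not tested as effects of genotype; the 95% intervals cover counting error only, and reads here carry no stated molecular identifiers, so they are not independent molecules. Ratios are knockout over wild type after the authors' scaling. Eed itself was 3.08-fold lower in the knockout library (2.61 to 3.66), with 183 reads against 588. All 12 crypt epithelial markers were within 2-fold, among them the epithelial adhesion gene Epcam, with 2759 and 2566 reads in wild type and knockout, and the stem cell receptor Lgr5, with 499 and 649. The lowest ratio on that list was of Cdx2, an intestinal identity factor, with 1964 and 1015 reads (ratio 0.539, 0.499 to 0.581), followed by the stem cell marker Olfm4, with 2606 and 1622. In bulk RNA, more cells that express a gene and more RNA per cell cannot be told apart.

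All 4 Zic genes were nearly or wholly without reads in the wild-type library and had reads in the Eed knockout library. Together they had 4 wild-type reads and 693 in the knockout, 54.1% of the latter from Zic1 and 34.2% from Zic2. A gene was called higher here when its log2 ratio, computed on normalised reads plus 1, was at least 1 and its mean over both libraries at least 20 normalised reads. By that rule 11.2% of 10879 genes were higher and 3.58% lower. Zic1, Zic2 and Zic5 reached the mean of 20, and all 3 were called higher; they reached it through the knockout library, so the count of 3 supports nothing by itself. Zic4, with a mean of 18.4, fell just short. With no minimum, and with 0 reads set to a floor of 3 reads in that library, all 4 were at least 2-fold higher, as were 14.8% of all 17216 genes, against 4.81% at least 2-fold lower. An exact binomial test on the reads of the 2 libraries was added after the data were seen. Adjusted by Benjamini-Hochberg over the 10879 genes, it called 22.9% of them higher and 37.3% lower. Zic1, Zic2 and Zic5 were among the higher. They entered the test through the knockout library, so these calls support nothing by themselves.

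Zic1, a factor of the cerebellum and the dorsal neural tube, was the 1 member with wild-type reads. It had 4 wild-type reads and 375 in the knockout, for a ratio of 97.7 (95% interval 37.8 to 360). Its log2 ratio of 6.03 was the 30th highest of the 10879 genes. The authors' deposited table gives Zic1 an adjusted p of 2.44e-07, from the same 2 libraries.

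Zic4, the partner of Zic1 on chromosome 9, which has been studied with it in cerebellar development, had 0 wild-type reads and 34 in the knockout, at least 11.8-fold higher against the floor of 3 reads. The exons of the Zic1 and Zic4 transcripts counted here do not overlap in GENCODE M21, although other Zic4 transcripts make the gene bodies overlap. Of all 36-base windows of the Zic1 transcript, 7 of 2776 also occurred in another member, and 7 of 2500 in Zic4. No window of Zic2 or Zic5 did. The read length is not stated. For Zic4 the authors' deposited table gives a p of 0.0468 before adjustment and of 1 after it.

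Zic2, whose loss causes holoprosencephaly in mouse and human, had 0 wild-type reads and 237 in the knockout. It was at least 82.3-fold higher, and its log2 ratio of 6.95 was the 13th highest of the 10879 genes, a value that at 0 wild-type reads depends on the added read and pseudocount. There were 1507 genes with 0 wild-type reads, and their median in the knockout was 2 reads. No row has 0 reads in both libraries, so all of these had knockout reads, and genes silent in both are not counted. Of the 1507, 9 had as many knockout reads as Zic2 or more, Zic2 included (0.597%). The authors' deposited table gives Zic2 an adjusted p of 2.71e-06.

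Zic5, the partner of Zic2 on chromosome 14 and a factor of the neural crest and neural tube, had 0 wild-type reads and 47 in the knockout, at least 16.3-fold higher. Among the same 1507 genes, all of which had knockout reads, 49 (3.25%) had at least as many as Zic5. At least as many as Zic4 were found for 65 (4.31%). For Zic5 the adjusted p in the authors' deposited table is 0.584. At an adjusted p below 0.05, that table called Zic1 and Zic2 higher and not Zic4 or Zic5, against 0.89% of its 18766 rows. The bounds of Zic2, Zic4 and Zic5 do not place their fold changes in order against that of Zic1, because a count of 0 sets only a lower limit.

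Per length of transcript, the order in the knockout library was Zic1, Zic2, Zic4, Zic5. Zic1 reached 136 scaled reads per kb (exact Poisson 95% interval 123 to 151), against 1.39 in the wild type. Zic2 reached 99.2 (86.9 to 113), and Zic1 exceeded it 1.37-fold (1.16 to 1.62). Zic4 had 13.7 (9.48 to 19.1) and Zic5 10.1 (7.40 to 13.4). The last 2 did not differ beyond counting error, with a ratio of Zic5 to Zic4 of 0.735 (0.463 to 1.18). Each pair thus had 1 high and 1 low member: Zic1 stood 9.95-fold above Zic4 (6.99 to 14.6) and Zic2 9.85-fold above Zic5 (7.18 to 13.8). The level of Zic1 in the knockout lay above that of 71.4% of genes per kb, Zic2 above 65.3%, Zic4 above 40.3% and Zic5 above 37.2%. On the same scale Eed had 279 scaled reads per kb in the wild type and 90.4 (77.8 to 104) in the knockout. Zic1 was thus above what remained of Eed in that library, and the interval of Zic2 overlapped that of Eed.

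**Figure D1:**
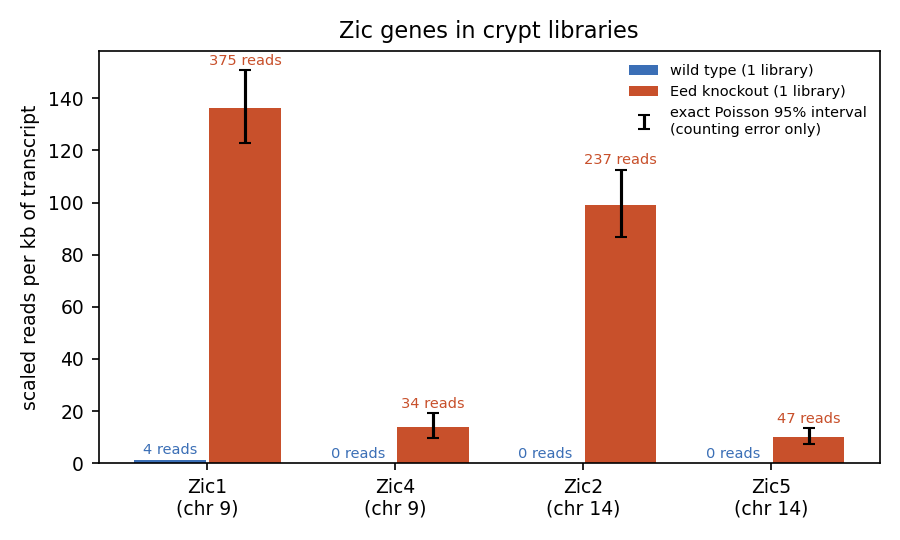
Scaled reads per kb of transcript for each Zic gene, with wild type in blue and Eed knockout in orange (1 library each); whiskers are exact Poisson 95% intervals and cover counting error only. Zic1 and Zic2 stand at 136 and 99.2 in the knockout, Zic4 and Zic5 at 13.7 and 10.1, and the wild-type bars are at or near 0.

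**Figure D2:**
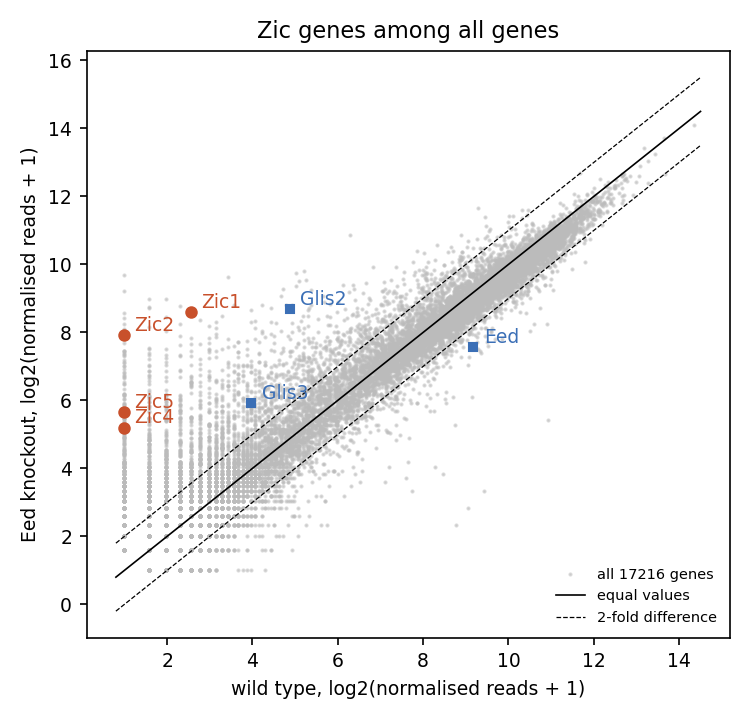
Each grey point is 1 of 17216 genes, placed by log2(normalised reads + 1) in the wild type (x axis) and the Eed knockout (y axis); the solid line marks equal values and the dashed lines a 2-fold difference. Zic2, Zic4 and Zic5 lie on the left edge, where wild-type reads are 0, and Zic1 close to it, while Glis2 and Glis3 (blue squares) start from 28 and 14 wild-type reads.

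Genes with the most similar pair of values were found by the distance of log2(normalised reads + 1) over the 2 libraries. Nearest to Zic1 were Robo1, an axon guidance receptor (3 and 425 reads in wild type and knockout), Gpc3, a glypican (5 and 318), Nes, the intermediate filament nestin (3 and 293), Plagl1 (6 and 282) and Serpine2 (2 and 343). Nearest to Zic2 were Zfhx4 (0 and 251), Foxl2os (0 and 263), Sp8, a zinc finger factor of limb and brain (0 and 265), Foxl2 (0 and 201) and Hoxa11os (0 and 295). Foxl2os and Hoxa11os are antisense genes, and whether counting used the strand is not stated in the sources at hand. Among the nearest to Zic5 were Fermt2, with the same 0 and 47 reads, AI606473 and Dlx3 (0 and 46 each) and Tmem132c (0 and 42). Pax3, a neural crest and muscle factor singled out after its values were seen, had the same 0 and 34 reads as Zic4.

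Of the genes beside the 2 loci with a mean of at least 20, all but Rasgrf1 were within 2-fold. In gene order, 10 genes with a row flank each pair, 5 per side. Around Zic1 and Zic4, 5 of the 10 had a mean of at least 20, of which 1 was higher and 4 were within 2-fold. By the same rule 11.2% of 10879 genes were higher and 3.58% lower, so most genes were within 2-fold wherever they lie. The adjoining Tbc1d2b, a Rab GTPase-activating protein, had 570 and 517 reads, for a ratio of 0.945 (0.838 to 1.07). Plscr1, a phospholipid scramblase on the other side, had 758 and 981 reads, for a ratio of 1.35 (1.23 to 1.48). Its relative Plscr5, between them, had 1 and 0 reads. The higher one, Rasgrf1, an imprinted exchange factor for Ras, had 3 and 35 reads (ratio 12.2, 3.83 to 61.8) and is the farthest in order on its side. It reached the mean of 20 through the knockout library. Under that mean, Adamts7 had 10 and 24 reads (ratio 2.50, 1.15 to 5.86). 1700057G04Rik had 0 and 14, at least 4.86-fold higher, and B430319G15Rik had 0 and 7, at least 2.43-fold higher. Morf4l1, also under it, was level at 12 and 13 reads.

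Around Zic5 and Zic2, 6 of the 10 flanking genes had a mean of at least 20, and all 6 were within 2-fold. So were most of the 10879 genes tested, of which 11.2% were higher and 3.58% lower. Pcca, a subunit of propionyl-CoA carboxylase that adjoins Zic2, had 438 and 503 reads, for a ratio of 1.20 (1.05 to 1.36). Clybl, on the side of Zic5, had 215 and 186 reads, for a ratio of 0.902 (0.737 to 1.10). Noncoding genes there were mixed. 2610035F20Rik, which lies between Zic5 and Zic2, had 0 and 16 reads, at least 5.56-fold higher. Gm5089, which adjoins Zic5 and overlaps Clybl, had 0 and 9 reads, at least 3.13-fold higher. Both means were under 20. A330035P11Rik, another noncoding gene on the side of Zic5, had 105 and 109 reads (ratio 1.08, 0.820 to 1.43).

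**Figure D3:**
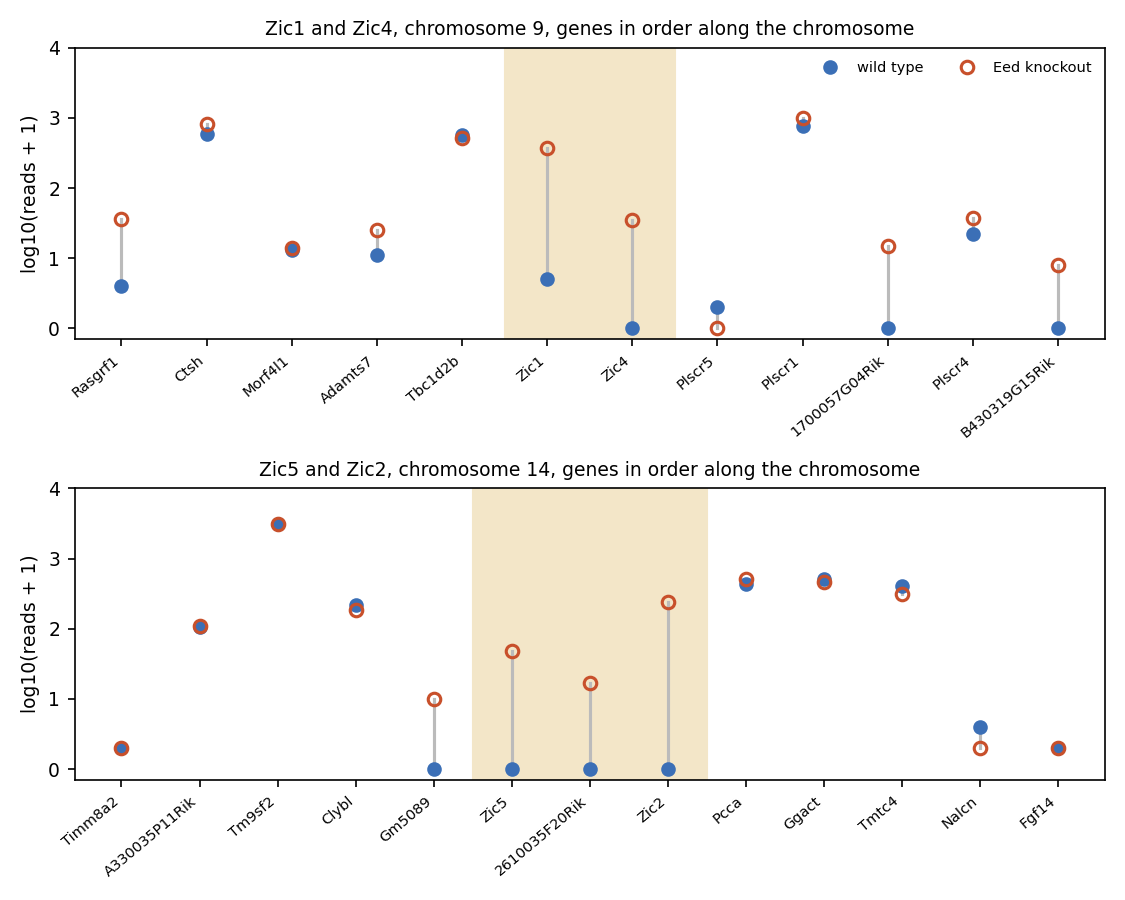
Reads in the wild type (filled) and the Eed knockout (open) on a log10(reads + 1) axis for genes in their order along chromosomes 9 and 14, with the Zic loci shaded. The shaded genes go from 0 to 4 reads up to 16 to 375. Among the unshaded genes, Tbc1d2b, Plscr1, Clybl and Pcca differ by less than 2-fold. Rasgrf1, Adamts7, 1700057G04Rik, B430319G15Rik and Gm5089 are more than 2-fold higher, with 0 reads set to a floor of 3.

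The closest relatives by zinc finger sequence, the Gli and Glis factors, gave a mixed picture. Of 5 with a row, Glis2, a factor of the kidney, had 28 and 399 reads, for a ratio of 14.9 (10.1 to 22.6). Glis3, a factor of pancreatic beta cells and kidney, had 14 and 57 reads, for a ratio of 4.24 (2.33 to 8.25). These were the 2 with a mean of at least 20, and both were called higher, as were 11.2% of all genes tested. Glis3 reached that mean through the knockout library. The Hedgehog effectors had few reads in both libraries: Gli1 had 2 and 1 reads, and Gli2 had 0 and 5, at least 1.74-fold higher. Glis1 had 4 and 5 reads, for a ratio of 1.30 (0.280 to 6.57); the interval spans 1.

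Genes of proteins known to bind Zic factors mostly had RNA reads in both libraries and were mostly level, as were most genes. Of 6 with a mean of at least 20 among 8 with a row, 5 were within 2-fold. The median log2 ratio of the 6 was 0.00, against -0.11 over all genes tested, of which 11.2% were higher and 3.58% lower. The called one, Mdfic, a relative of the Zic-binding inhibitor I-mfa, had 26 and 75 reads, for a ratio of 3.01 (1.90 to 4.89).

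Among 8 genes with a row that Zic factors are reported to regulate elsewhere, 3 had a mean of at least 20, of which 2 were higher and none lower. Atoh1, which Zic1 restrains in the neural tube and which drives the secretory lineage in crypts, had 478 and 1096 reads, for a ratio of 2.39 (2.14 to 2.67). Apoe, an apolipoprotein gene with reported Zic sites, had 139 and 309 reads, for a ratio of 2.32 (1.89 to 2.85). The third, Slc6a4, the serotonin transporter gene, which Zic2 is reported to induce in retinal neurons, had 1459 and 737 reads, 1.90-fold lower (1.74 to 2.08) and so inside the 2-fold limit. The median log2 ratio of the 3 was 1.20, against -0.11 over all genes tested, of which 11.2% were higher and 3.58% lower. Over all 8, with 0 reads at the floor, 4 were higher and none lower, and the libraries both had at most 3 reads for 1 of them. On that measure 14.8% of all genes were higher and 4.81% lower.

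Of 18 dorsal neural tube and neural crest genes with a row, which Zic genes accompany in the embryo, 4 had a mean of at least 20. Of these, 3 were higher and 1 lower. Their median log2 ratio was 2.33, against -0.11 over all genes tested, of which 11.2% were higher and 3.58% lower. The homeobox gene Msx1 had 4 and 102 reads, for a ratio of 26.6 (10.1 to 99.4), and Msx2 had 3 and 56, a ratio of 19.5 (6.32 to 97.2). Sox9, which crypts also express, had 695 and 1411 reads, for a ratio of 2.12 (1.93 to 2.32). Lmx1a, a roof plate factor also used by enterochromaffin cells, had 148 and 54 reads, 2.63-fold lower (1.91 to 3.66). Over all 18, at the floor, 9 were higher and 1 lower, and both libraries had at most 3 reads for 6. On that measure 14.8% of all genes were higher and 4.81% lower. Msx1 and Msx2 reached the mean of 20 through the knockout library. The median log2 ratio over all 18 was 1.06, against -0.004 over all 17216 genes.

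Genes that cause holoprosencephaly, as Zic2 does, included 3 higher and 4 within 2-fold of 7 with a mean of at least 20 (10 with a row). The median log2 ratio of the 7 was 0.96, against -0.11 over all genes tested, of which 11.2% were higher and 3.58% lower. The forebrain homeobox gene Six3 had 3 and 155 reads, for a ratio of 53.8 (18.1 to 264). Shh, the Sonic hedgehog ligand, had 4 and 90 reads, for a ratio of 23.4 (8.85 to 87.9), and Gas1, a Hedgehog co-receptor, had 2 and 40, a ratio of 20.8 (5.41 to 178). These 3 reached the mean of 20 through the knockout library. Over all 10, at the floor, 3 were higher and none lower, and both libraries had at most 3 reads for 2. On that measure 14.8% of all genes were higher and 4.81% lower. The median log2 ratio of the 10 was 0.79, against -0.004 over all 17216 genes. In the Hedgehog pathway, which shares members with that list, 3 of 7 with a mean of at least 20 were higher and 4 within 2-fold; over all 14 with a row, at the floor, 4 were higher and none lower. Besides Shh and Gas1, the co-receptor Boc was higher, at 48 and 149 reads (ratio 3.24, 2.32 to 4.58).

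Markers of other cell types moved unevenly beside the Zic genes. For the calls below that use the minimum of 20, the background was 11.2% higher and 3.58% lower among all 10879 tested. Of 13 neuronal markers, 8 had a row, and of the 4 with a mean of at least 20 only Ret was higher, with 20 and 68 reads (ratio 3.54, 2.13 to 6.16). Over all 8, at the floor, 3 were higher and none lower, where 14.8% of all genes were higher and 4.81% lower. Besides Ret these were Uchl1, with 2 and 17 reads (ratio 8.86, 2.10 to 79.1), and Stmn2, with 1 and 8 (ratio 8.34, 1.12 to 370). The summed level of the neuronal markers went from 116 to 191 normalised reads. Of 5 enteric glial markers with a row, 2 had a mean of at least 20 and neither was called. Their summed level of 3553 and 2879 was nearly all Erbb3, which epithelium also expresses (3608 and 2776 reads). Foxd3, under the minimum, had 1 and 18 reads (ratio 18.8, 2.96 to 782), and Sox10 had 0 and 1. Of 8 fibroblast markers, 3 of 4 with a mean of at least 20 were higher, all collagens. Col1a1 had 1 and 155 reads, for a ratio of 162 (28.6 to 6421), Col1a2 had 0 and 124, at least 43.1-fold higher, and Col3a1 had 6 and 198, a ratio of 34.4 (15.5 to 94.9). These 3 collagens reached the mean of 20 through the knockout library. Over all 8 fibroblast markers, at the floor, 5 were higher and none lower, and both libraries had at most 3 reads for 2. Besides the collagens, Lum had 0 and 16 reads, at least 5.56-fold higher, and Dpt had 1 and 7 (ratio 7.30, 0.937 to 329). The summed fibroblast level went from 268 to 726, while Dcn, Pdgfra and Vim, also on that list, had 0 and 1, 1 and 0, and 265 and 210 reads. No smooth muscle or immune marker was called, with 1 and 2 markers at a mean of at least 20 and summed levels of 120 and 125 and of 126 and 136. With no minimum, at the floor, 3 of 5 smooth muscle and 1 of 6 immune markers with a row were higher and none lower. No endothelial marker reached that mean, so none could be called; their summed level was 17.6 and 36.8, and Kdr, a receptor for vascular endothelial growth factor, had 2 and 21 reads (ratio 10.9, 2.67 to 96.3). The part of these cell types in the Zic reads was not tested.

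**Figure D4:**
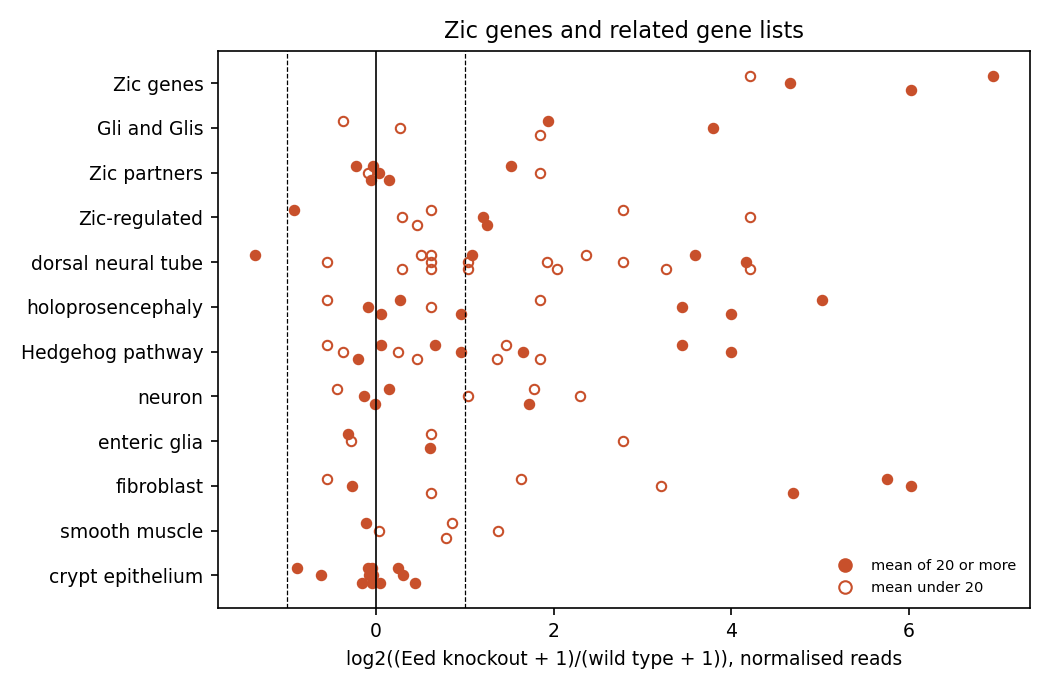
Log2 ratio of Eed knockout over wild type, on normalised reads plus 1, for each gene of the Zic family, 6 related lists and 5 cell type lists; filled points have a mean of at least 20, open points less, and dashed lines mark a 2-fold difference. The Zic genes lie between 4.21 and 6.95, the partners with a mean of at least 20 cluster near 0 apart from Mdfic, and crypt epithelial markers lie within 2-fold.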

How the data were processed

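Reads were aligned with TopHat to mouse build mm9 and DESeq was used for the values, per the submitters' processing notes; no source used here gives versions, the counter, read length or strand use. The authors deposited a normalised signal per library for 18766 RefSeq transcript rows, with their ratio (fold change), its log2 and their p-values, per the file headers. Divided by the lowest value of their library, 100% of the deposited values are whole numbers within a tolerance of 1e-06. No row is at 1 in both libraries, while 851 are at 1 and 2, and 550 at 2 and 1. The addition of 1 read to each value was inferred from this, and reads given here are those whole numbers minus 1.

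Rows were joined to RefSeq genes (GRCm38.p6) by accession (98.6% matched) for names and gene order only; lengths came from GENCODE M21. A gene is its row with the highest mean. Calls are by size: a log2 ratio of at least 1 on value + 1 and a mean of at least 20. Intervals are exact Clopper-Pearson, conditional on both libraries' sum, and Poisson for levels; a count of 0 has a floor of 3 reads. Depth limits genes with few reads. Members and lists were chosen with earlier results of these data known. Named genes were the members, Eed, the Gli and Glis factors, up to 4 called genes per list with the largest ratios, flanking genes and the 5 nearest by value, of which 1 is not reported here; markers and genes named with lower counts outside this rule were chosen after their values were seen. Functions were tested on simulated data. Alternatives were other pseudocounts, scalings (edgeR 4.0.16 for TMM), filters, thresholds and row sums. Scripts ran in Python 3.11.15 with SciPy 1.17.1, pandas 2.3.3, NumPy 2.4.6 and, for figures, Matplotlib 3.10.9.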

Additional observations from a re-analysis of the deposited data

How the results depend on the processing

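The 4 Zic genes stayed higher in the knockout library under each scaling and pseudocount tried. Each has 1 row, so the choice of rows could not change its ratio. With a pseudocount of 10 their log2 ratios were 4.72 for Zic1, 4.53 for Zic2, 2.06 for Zic4 and 2.43 for Zic5. No paired analysis was possible because each genotype has 1 library. The log2 median over all genes tested was -0.11 and moved to 0.06 with library totals, a shift that is small beside the Zic ratios; the higher share of calls went from 75.7% to 85.9%, with 1444 higher and 237 lower.

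Counts of higher and lower calls over all genes, 1217 and 390, became 2825 and 726 with no filter, 477 and 247 with a mean of at least 100, 1837 and 1430 at 1.5-fold, and 568 and 59 at 4-fold. Chosen after seeing the data, the floor of 3 reads with no filter gave 2551 and 828. The exact binomial test on reads (Benjamini-Hochberg at 0.05) was also chosen after seeing the data. It compared 2 libraries rather than genotypes and called 2486 genes higher and 4062 lower. Zic1, Zic2 and Zic5 were among the higher, but had entered the test through the knockout library.

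With no filter, higher calls were 2 of 8 Zic partners, 4 of 8 Zic-regulated, 11 of 18 dorsal neural tube and 6 of 14 Hedgehog genes. They were also 4 of 8 neuronal and 5 of 8 fibroblast genes, and 1 each of 5 glial, 5 smooth muscle, 3 endothelial and 6 immune genes. With a mean of at least 100 they were 1 each of the Gli and Glis, dorsal neural tube, Hedgehog and fibroblast genes, and 0 of the partner, holoprosencephaly and neuronal genes. At 1.5-fold, 5 Hedgehog genes and 1 glial gene were higher, and 1 Zic-regulated and 2 crypt epithelial genes lower. At 4-fold, 1 Gli or Glis gene and 0 partner, Zic-regulated or neuronal genes were higher, and 0 dorsal neural tube or PRC2 genes lower. Over all genes, higher calls were 2825 of 17216 with no filter and 477 of 8115 with a mean of at least 100. They were 1837 of 10879 at 1.5-fold and 568 of 10879 at 4-fold. Zic genes called were 4 with no filter, 2 with a mean of at least 100, and 3 at either threshold. They reach any minimum through the knockout library. The filter and the threshold set how many genes can be called.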
